A study of Mus musculus with 9 samples.

Results

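The 9 genes described here encode the signalling chains of the B cell receptor and the proteins that act directly next to them. Among transcripts other than immunoglobulin (Ig), Cd79a was 7.31-fold lower in plasma cells (PCs) than in naive B cells, and Cd81 was 1.63-fold higher. These were the ends of the range, and the PC and naive levels of Blnk overlapped. With Ig genes kept, the log2 change of Cd79a was -4.09 in place of -2.87, and that of Cd81 was -0.52 in place of 0.70. The 9 genes were taken by name as a fixed list, namely Cd79a, Cd79b, Cd81, Lyn, Syk, Btk, Blnk, Pik3ap1 and Plcg2, out of 29995 genes in the table that omits Ig genes. All 9 were listed in the table, and all 9 were among the 12892 genes tested, those with at least 1 TPM (a transcript level corrected for transcript length and scaled to a fixed sum per library) in at least 3 libraries. Gene expression had been measured by RNA-seq in B-lineage cells sorted from the spleens of 12-week-old B6.Blimp1+/GFP mice at day 4 after an intraperitoneal dose of 50 µg NP-LPS, the hapten nitrophenyl on bacterial lipopolysaccharide. Every animal carried GFP at 1 allele of Prdm1, the gene of Blimp1, so the naive cells came from immunized reporter mice and there was no unimmunized group. Naive B cells had high IgD, carried B220 and were negative for NP binding. The NP-specific B cells, written NP+ B cells, were B220 positive, bound the hapten and lacked IgD, GFP and CD138. PCs bound NP, lacked IgD, carried GFP and CD138 and could be positive or negative for B220. Cells stained for CD4, CD8a, Ter-119 or F4-80 were gated out, and the sort was repeated before RNA was extracted. Each group had 3 libraries, and no product of the 9 genes was used as a sort marker. The sort did use IgD and NP binding, which are properties of the immunoglobulin that Cd79a and Cd79b accompany in the receptor. The part of this in their levels was not tested.

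The B cell receptor is a membrane immunoglobulin held together with a heterodimer of Cd79a and Cd79b, whose cytoplasmic tails carry the tyrosine motifs that start the signal. Lyn phosphorylates these motifs, Syk binds them and phosphorylates the adaptor Blnk, and Blnk brings Btk and phospholipase C gamma 2 (Plcg2) together so that calcium and diacylglycerol are released. Cd81 is a tetraspanin of the co-receptor that lowers the threshold of the receptor, and Pik3ap1, also called BCAP, links the receptor to phosphoinositide 3-kinase. PCs secrete most of the immunoglobulin they make and are known to turn down many B cell genes.

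The libraries held 28490300 to 31719400 estimated reads outside Ig genes (rounded to 6 digits) in naive B cells, 34918400 to 38602300 in NP+ B cells and 20189900 to 22137400 in PCs. The least covered value, Pik3ap1 in a PC library, rested on 350 estimated reads, and every other member had at least 2424 in each library. Summed TPM of 5 B cell markers was 2806 to 3072 in naive B cells, 2309 to 2505 in NP+ B cells and 150 to 159 in PCs. That of 5 plasma cell markers was 142 to 167, 175 to 194 and 4811 to 5939. Xbp1 alone averaged 156 TPM in NP+ B cells and 4174 in PCs. In NP+ against naive B cells the log2 changes were 3.68 for Tnfrsf17, 0.74 for Prdm1, 0.38 for Xbp1, -1.20 for Irf4 and -2.52 for Sdc1. CD138, the product of Sdc1, and GFP at Prdm1 were themselves used in the sort. T cell markers (6 genes) summed to at most 8.51 TPM in any library. PC replicate 3 stood apart, since 5 hepatocyte markers summed to 4825 TPM there and to 22.3 and 25.7 in the other PC libraries, against at most 5.52 in the B cell libraries. Myeloid markers, 8 of 9 of which were listed, summed to 5.77 to 8.46 TPM in naive B cells, to 21.5 to 84.1 in NP+ B cells with the highest value in replicate 2, and to 11.4 to 88.8 in PCs with the highest value in replicate 3. Dendritic cell markers (4 genes) summed to 5.90 to 6.94 TPM in naive B cells, 21.0 to 23.8 in NP+ B cells and 6.07 to 7.94 in PCs, and 1 of the genes gave 15.8 to 19.4 of the NP+ values. Erythroid markers (6 genes) summed to 15.1 to 17.7 TPM in naive B cells, 18.6 to 29.7 in NP+ B cells and 6.20 to 36.9 in PCs. PC replicate 3 had the highest erythroid sum and the highest sum of platelet markers (3 genes, 8.36 TPM). NK cell markers (4 genes) summed to at most 2.55 TPM in any library. The part that RNA of other cells plays in the values was not tested, and results that rest on PC replicate 3 are also given without it.

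RefSeq promoter windows of GRCm38.p6, from 250 bases before to 50 bases after the start that sets each window, were matched by symbol for 7 of the 9 genes, in 8 windows. Cd79b and Lyn had no entry. Since members that move together may be compared at their starts, the windows were searched on both strands for 6 short motifs. The E-box CAGGTG, the form preferred by E2A proteins, was in windows of Cd79a, Syk, Blnk, Pik3ap1 and Plcg2, or 5 of 7 genes and 6 of 8 windows, against 20.2% of all 32851 windows of the same length. Another E-box, CAGCTG, was in those of Cd81, Syk and Pik3ap1 (16.3% of all windows), and the PU.1 core GAGGAA was in those of Cd79a, Syk, Btk and Pik3ap1 (28.3%). The octamer ATGCAAAT was found for Blnk (1.74%), whereas the EBF1 palindrome, TCCC and GGGA with 2 bases between them, and GAAAGT, the core of Blimp1 sites, were in no member's window, against 0.904% and 14.3% of all windows. A match is a stretch of letters and was not measured as a binding site. CAGGTG occurred for Blnk, whose PC to naive log2 change was 0.066, and for Plcg2 (-0.82), but not for Btk (-0.94). Sequences are printed for Cd79a and Pik3ap1, the members with the lowest PC levels relative to naive B cells, and for Cd81, which was higher. Each is the part of the searched window up to the base before the gene's GENCODE start, which can differ from the start that sets the window. The printed parts are 134 bases long for Cd79a, 250 for Pik3ap1 and 239 for Cd81, 5′ to 3′ on the gene's strand, with CAGGTG in capitals. They lie at chr7:24897247-24897380 (plus strand) for Cd79a, at chr19:41385103-41385352 (minus strand) for Pik3ap1 and at chr7:143052500-143052738 (plus strand) for Cd81, which has no CAGGTG.
Cd79a: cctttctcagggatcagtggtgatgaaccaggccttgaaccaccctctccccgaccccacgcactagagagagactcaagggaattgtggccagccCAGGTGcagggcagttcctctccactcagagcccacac
Pik3ap1: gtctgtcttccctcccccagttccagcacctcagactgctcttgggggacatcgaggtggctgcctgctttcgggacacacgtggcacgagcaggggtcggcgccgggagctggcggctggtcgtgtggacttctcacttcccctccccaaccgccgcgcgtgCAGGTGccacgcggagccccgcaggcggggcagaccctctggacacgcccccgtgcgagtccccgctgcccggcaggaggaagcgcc
Cd81: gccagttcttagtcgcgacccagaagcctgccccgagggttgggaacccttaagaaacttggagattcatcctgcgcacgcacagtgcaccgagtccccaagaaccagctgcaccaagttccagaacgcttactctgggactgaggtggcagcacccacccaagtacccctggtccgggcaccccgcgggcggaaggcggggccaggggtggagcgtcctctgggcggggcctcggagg

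The receptor chains were the most abundant members in naive and NP+ B cells. Cd79a (ENSMUSG00000003379.7, chr7:24897381-24902197, plus strand, GENCODE M21 on GRCm38) encodes the Ig-alpha chain. Its TPM was 3443, 3736 and 3460.0 in the naive libraries, 2174, 2292 and 2346 in the NP+ B cell libraries and 489, 461 and 509 in the PC libraries. The groups did not overlap, and the order was naive, NP+, PC. Cd79a ranked 29th of all genes by mean TPM in naive B cells, 50th in NP+ B cells and 360th in PCs. On the log2 scale the level of Cd79a was -0.65 (SE 0.068, adjusted p = 4.3e-05, limma) in NP+ against naive B cells, a 1.57-fold decrease. In PCs it was -2.87 (SE 0.074, adjusted p = 3.6e-10) against naive B cells and -2.22 (SE 0.075, adjusted p = 2.9e-09) against NP+ B cells. These PC changes were -4.09 and -3.43 with Ig genes kept, and -2.38 and -1.84 with median-of-ratios scaling. The PC to naive change of Cd79a stood at percentile 3.56 among the changes of all tested genes.

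Cd79b (ENSMUSG00000040592.11, chr11:106311341-106314762, minus strand) encodes the Ig-beta chain. Its TPM was 2993, 2927 and 2774 in naive B cells, 2007, 2189 and 2187 in NP+ B cells and 891, 952 and 831 in PCs. It followed the same order as Cd79a without overlap, but its PC level was higher than that of Cd79a in each library. The log2 change of Cd79b was -0.45 (adjusted p = 0.00077) in NP+ B cells, a 1.37-fold decrease, and -1.71 (SE 0.077, adjusted p = 1.7e-08) in PCs against naive B cells, a 3.27-fold decrease. Against NP+ B cells it was -1.25 (SE 0.078, adjusted p = 2.5e-07) in PCs, and this 2.38-fold decrease fell below the 2-fold threshold with median-of-ratios scaling (-0.87) and TMM scaling (-0.92). Against naive B cells the PC change of Cd79b was -1.21 with median-of-ratios scaling. When Ig genes were kept it was -2.93 against naive and -2.46 against NP+ B cells.

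The chains stood in another proportion in PCs. The ratio of Cd79a to Cd79b TPM, which a factor per library cannot move, was 1.15, 1.28 and 1.25 in naive B cells, 1.08, 1.05 and 1.07 in NP+ B cells and 0.549, 0.484 and 0.613 in PCs. Cd79a was the higher chain in all 6 B cell libraries and the lower one in all 3 PC libraries. The log2 ratio differed by -1.16 for PCs against naive B cells, by -0.97 for PCs against NP+ B cells and by -0.20 for NP+ against naive B cells. For each of these differences the two-sided exact permutation test gave p = 0.1, the smallest value that 3 libraries against 3 allow (adjusted p = 0.129 over 9 comparisons of ratios, exact test).

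**Figure D1:**
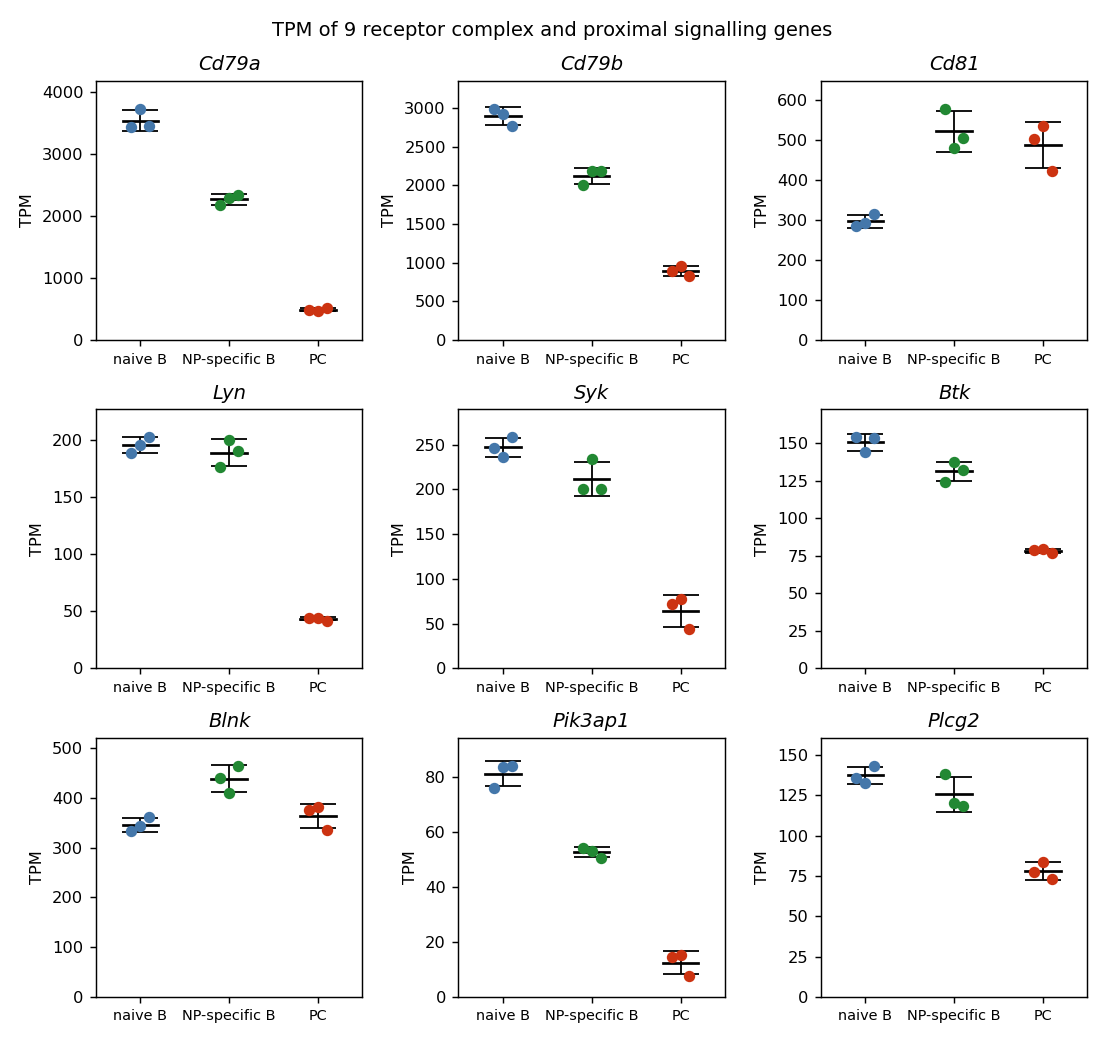
TPM of the 9 genes in each library (points) in the table without Ig genes, with 1 panel per gene, linear axes from 0 and bars for mean ± SD of 3 libraries per group. Cd79a and Cd79b step down from naive B cells over NP+ B cells to PCs, Cd81 is lowest in naive B cells, and Lyn lies between 177 and 203 in the B cell libraries and between 41.8 and 44.3 in PCs.

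**Figure D2:**
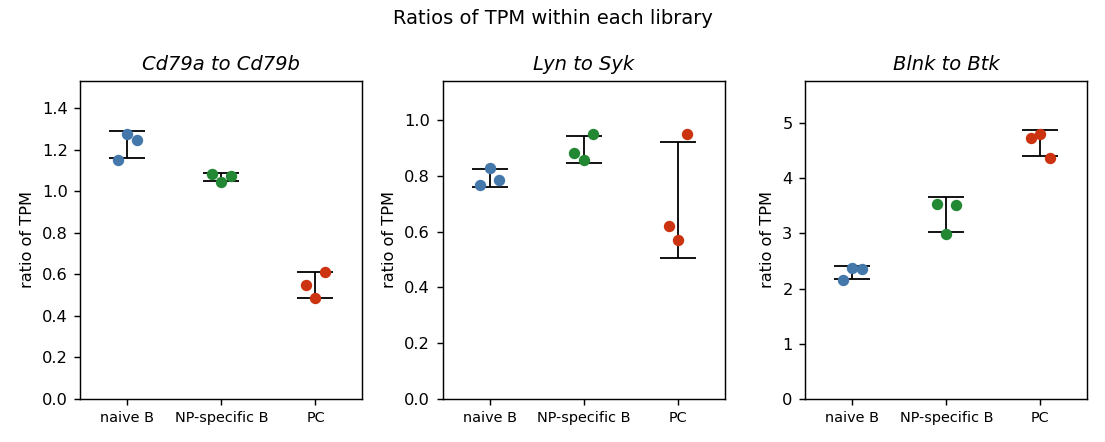
Ratios of TPM within each library for Cd79a to Cd79b, Lyn to Syk and Blnk to Btk, with bars for mean ± SD of 3 libraries per group. The first ratio is 1.22 in naive B cells and 0.549 in PCs on average, and the last is 2.30 and 4.64.

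The chains were also set against the immunoglobulin they carry, for which the table with Ig genes was used. Ighm, the mu heavy chain gene, had 1.35 ± 0.0992 (SD, n = 3) times the TPM of Cd79a in naive B cells, 2.59 ± 0.287 times in NP+ B cells and 338.4 ± 51.3 times in PCs. Against Cd79b the ratio of Ighm was 1.65, 2.76 and 183.5. In PCs the lowest ratio of Ighm to Cd79a in a library was 297, far above the highest in NP+ B cells, 2.77. The table gives 1 value per gene, so membrane and secreted forms of Ighm were not separated. Ighd, the delta heavy chain gene, had 0.857 times the TPM of Cd79a in naive B cells and 0.0199 times in NP+ B cells, where IgD had been sorted against.

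Cd81 was the member that was higher in both NP-binding groups. It encodes a tetraspanin of the co-receptor (ENSMUSG00000037706.17, chr7:143052739-143067934, plus strand), and its TPM was 284, 293 and 316 in naive B cells, 579, 481 and 507 in NP+ B cells and 504, 536 and 424 in PCs. Each NP+ library exceeded each naive library, whereas NP+ B cells and PCs overlapped. The log2 change of Cd81 was 0.80 (SE 0.11, adjusted p = 0.00027) in NP+ B cells, 1.74-fold, and 0.70 (SE 0.11, adjusted p = 0.00026) in PCs against naive B cells, 1.63-fold, both under the 2-fold threshold. The PC value passed that threshold with median-of-ratios (1.19) and TMM scaling (1.13), and its direction turned (-0.52) with the Ig genes kept, so the rise of Cd81 in PCs is relative to other non-Ig transcripts. Between PCs and NP+ B cells the log2 change of Cd81 was -0.10 (adjusted p = 0.47).

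The proximal kinases differed in how far they fell. Lyn (ENSMUSG00000042228.14, chr4:3678115-3813122, plus strand), a Src family kinase that also activates inhibitory receptors, had 189, 196 and 203 TPM in naive B cells, 177, 200.1 and 191 in NP+ B cells and 44.3, 44.2 and 41.8 in PCs. The B cell groups overlapped, and every PC library lay far below both. The log2 change of Lyn was -0.058 (SE 0.084, adjusted p = 0.60) between the B cell groups, a value that turned to 0.052 and 0.032 with median-of-ratios and TMM scaling. In PCs it was -2.16 (SE 0.099, adjusted p = 1.8e-08, 4.48-fold lower) against naive B cells and -2.11 (SE 0.099, adjusted p = 3.0e-08, 4.31-fold lower) against NP+ B cells. These PC changes were -3.35 and -3.28 with Ig genes kept, and -1.67 and -1.72 with median-of-ratios scaling.

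Syk (ENSMUSG00000021457.14, chr13:52583173-52648792, plus strand) had 246, 236 and 258 TPM in naive B cells, 201, 234 and 201 in NP+ B cells and 71.7, 77.3 and 44.0 in PCs. The naive and NP+ libraries did not overlap, yet the log2 change of -0.23 did not pass the test (SE 0.15, adjusted p = 0.25). In PCs the log2 change of Syk was -1.98 (SE 0.17, adjusted p = 2.8e-06, 3.94-fold lower) against naive B cells and -1.75 (SE 0.17, adjusted p = 1.0e-05, 3.36-fold lower) against NP+ B cells. PC replicate 3 was the lowest library of Syk, and without it the changes were -1.73 and -1.49, still past both thresholds. In all libraries the PC changes of Syk were -3.17 and -2.93 with Ig genes kept, and -1.48 and -1.36 with median-of-ratios scaling. The ratio of Lyn to Syk was 0.793 ± 0.0319 in naive B cells, 0.895 ± 0.0483 in NP+ B cells and 0.713 ± 0.206 in PCs, where the libraries had 0.618, 0.571 and 0.950. Between NP+ and naive B cells the ratios did not overlap (log2 difference 0.17, two-sided exact permutation test, p = 0.1, adjusted p = 0.129). The PC ratios overlapped those of both B cell groups (two-sided exact permutation test, p = 0.4 for each, adjusted p = 0.4). The overlap rested on PC replicate 3, since without it both PC ratios lay below every B cell library and the log2 differences were -0.42 against naive B cells and -0.59 against NP+ B cells, in place of -0.19 and -0.36. Without PC replicate 1 they were -0.11 and -0.28, and without PC replicate 2 -0.049 and -0.22.

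Btk, the Tec family kinase that activates Plcg2, is on chromosome X (ENSMUSG00000031264.13, chrX:134542336-134583570, minus strand). Its TPM was 154, 144 and 154 in naive B cells, 125, 137 and 132 in NP+ B cells and 79.2, 79.3 and 76.8 in PCs. The 3 groups did not overlap. Its log2 change was -0.21 (SE 0.085, adjusted p = 0.073) between the B cell groups, -0.94 (SE 0.089, adjusted p = 5.2e-06) in PCs against naive B cells and -0.74 (SE 0.090, adjusted p = 4.5e-05) in PCs against NP+ B cells. Both PC decreases of Btk, 1.92-fold and 1.67-fold, passed the test without reaching 2-fold. With Ig genes kept the log2 changes of Btk were -2.14 and -1.93, past both thresholds, and with median-of-ratios scaling they were -0.45 and -0.35.

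The adaptors went separate ways. Blnk (ENSMUSG00000061132.13, chr19:40928927-40994535, minus strand), the scaffold on which Btk and Plcg2 meet, had 333, 343 and 362 TPM in naive B cells, 439.7, 410.5 and 465 in NP+ B cells and 375, 381 and 336 in PCs. NP+ B cells stood above both other groups, and PCs overlapped naive B cells through PC replicate 3. The log2 change of Blnk was 0.33 (SE 0.087, adjusted p = 0.011) in NP+ against naive B cells. With quantile normalization it was 0.094 (adjusted p = 0.35), and without naive replicate 1 the adjusted p was 0.0503. In PCs against naive B cells it was 0.066 (SE 0.087, adjusted p = 0.53), a value whose direction turned with quantile normalization (-0.26) and with Ig genes kept (-1.15), while with median-of-ratios and TMM scaling it was 0.56 and 0.49 (adjusted p = 0.00034 and 0.00096). Against NP+ B cells the change in PCs was -0.27 (SE 0.086, adjusted p = 0.023), and it turned to 0.12 and 0.070 with median-of-ratios and TMM scaling. Its adjusted p was above 0.05 without PC replicate 3 (0.081) or NP+ replicate 3 (0.085), with the NP+ and PC libraries fitted alone (0.061) and with the deposited log2 values (0.055). The ratio of Blnk to its partner Btk was 2.16, 2.38 and 2.35 in naive B cells, 3.53, 2.99 and 3.51 in NP+ B cells and 4.74, 4.80 and 4.37 in PCs. No library of one group reached the range of another, with log2 differences of 0.54 for NP+ against naive B cells, 1.01 for PCs against naive B cells and 0.47 for PCs against NP+ B cells (two-sided exact permutation test, p = 0.1 for each). Quantile normalization, which can move ratios within a library, gave 0.55, 0.62 and 0.073 for these differences.

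Pik3ap1 (ENSMUSG00000025017.10, chr19:41272377-41385102, minus strand) was the least abundant member in every group. Its TPM was 76.0, 83.7 and 84.1 in naive B cells, 54.2, 53.2 and 50.5 in NP+ B cells and 14.6, 15.0 and 7.53 in PCs. The 3 groups did not overlap. The log2 change of Pik3ap1 was -0.63 (SE 0.16, adjusted p = 0.0092) in NP+ B cells, a 1.55-fold decrease. In PCs it was -2.73 (SE 0.20, adjusted p = 8.0e-07, 6.64-fold lower) against naive B cells and -2.10 (SE 0.21, adjusted p = 9.5e-06, 4.29-fold lower) against NP+ B cells. Without PC replicate 3, where Pik3ap1 was lowest, these changes were -2.42 and -1.79. In all libraries they were -3.81 and -3.17 with Ig genes kept, and -2.23 and -1.72 with median-of-ratios scaling.

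Plcg2 (ENSMUSG00000034330.10, chr8:117498291-117635142, plus strand), the phospholipase at the end of the proximal pathway, had 136, 133 and 143 TPM in naive B cells, 138, 120.1 and 119 in NP+ B cells and 77.5, 83.9 and 73.1 in PCs. The B cell groups overlapped and PCs stood below both. Its log2 change was -0.14 (SE 0.097, adjusted p = 0.27) between the B cell groups, -0.82 (SE 0.10, adjusted p = 4.5e-05) in PCs against naive B cells and -0.68 (SE 0.10, adjusted p = 0.00022) in PCs against NP+ B cells. These decreases of 1.76-fold and 1.60-fold were under 2-fold. With Ig genes kept the log2 changes of Plcg2 were -2.02 and -1.87, past both thresholds, and with median-of-ratios scaling they were -0.32 and -0.30. Annotated genes on the opposite strand overlap Cd81, Lyn, Btk and Plcg2, and the library kit does not mark strand. Of these overlapping genes 3 were listed, with a mean of at most 8.07 TPM in naive B cells.

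**Figure D3:**
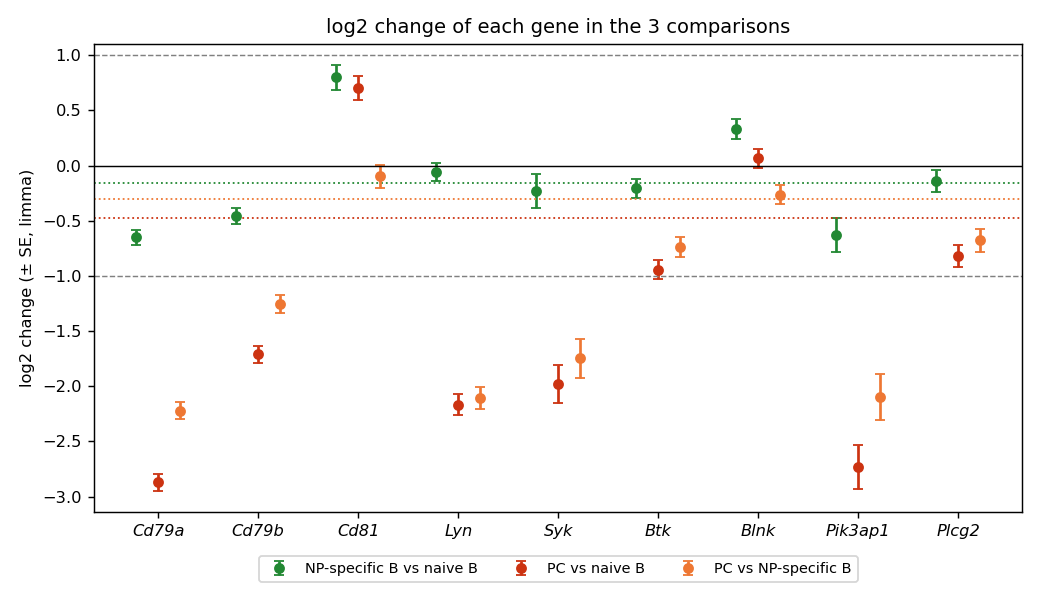
log2 change of the 9 genes in the 3 comparisons, with bars for the standard error from limma, dashed lines at a 2-fold change and a dotted line per comparison at the median change of all tested genes. In the PC comparisons Cd79a, Cd79b, Lyn, Syk and Pik3ap1 lie below the lower line, while Btk, Plcg2, Blnk and Cd81 lie between the lines.

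Counted over the list, a gene was called different with an adjusted p under 0.05 and more than a 2-fold change. Between NP+ and naive B cells 0 of 9 members were called by limma, where 18.5% of all tested genes were. At an adjusted p under 0.05 alone there were 5 members, Cd81 and Blnk higher and Cd79a, Cd79b and Pik3ap1 lower, against 42.1% of all genes. With quantile normalization 8 members reached an adjusted p under 0.05, Cd81 higher and 7 lower, against 39.9% of all genes, and Blnk did not. With log2(TPM + 0.1) Pik3ap1 did not (adjusted p = 0.0505). The groups did not overlap for 7 of 9 members and for 55.9% of all genes. The members' median log2 change was -0.21 and that of all tested genes -0.16. Over all tested genes 1048 were called higher and 1340 lower, against 1258 and 1022 with median-of-ratios scaling.

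Between PCs and naive B cells 5 of 9 members were called, all lower, where 37.8% of all tested genes were called and 26.3% were called lower. The 5 were Cd79a, Cd79b, Lyn, Syk and Pik3ap1, and they were called lower under every alternative that was run. An adjusted p under 0.05 alone was reached by 8 members and by 60.3% of all genes, and the groups did not overlap for 8 members and for 69.7% of all genes. Without PC replicate 3 they did not overlap for 9 members and for 76.9% of all genes. The median log2 change was -1.71 for the members and -0.47 for all tested genes. The latter depends on scaling, since it was 0.018 with median-of-ratios scaling and -1.40 with Ig genes kept, and Cd81 and Blnk crossed 0 with such shifts. Over all tested genes 1473 were called higher and 3397 lower, against 2349 and 1814 with median-of-ratios scaling and 551 and 7943 with Ig genes kept. In such bulk samples, fewer cells that express a gene and less RNA of it per cell cannot be told apart.

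Between PCs and NP+ B cells the same 5 members were called lower, against 32.2% of all tested genes called and 22.3% called lower. There were 8 members with an adjusted p under 0.05, all lower, against 53.8% of all genes, and 8 members without overlap, against 58.2% of all genes. The median was -1.25 for the members and -0.30 for all tested genes. Over all tested genes 1280 were called higher and 2870 lower, against 2023 and 1788 with median-of-ratios scaling and 420 and 7355 with Ig genes kept. Both PC comparisons share the PC libraries.

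**Figure D4:**
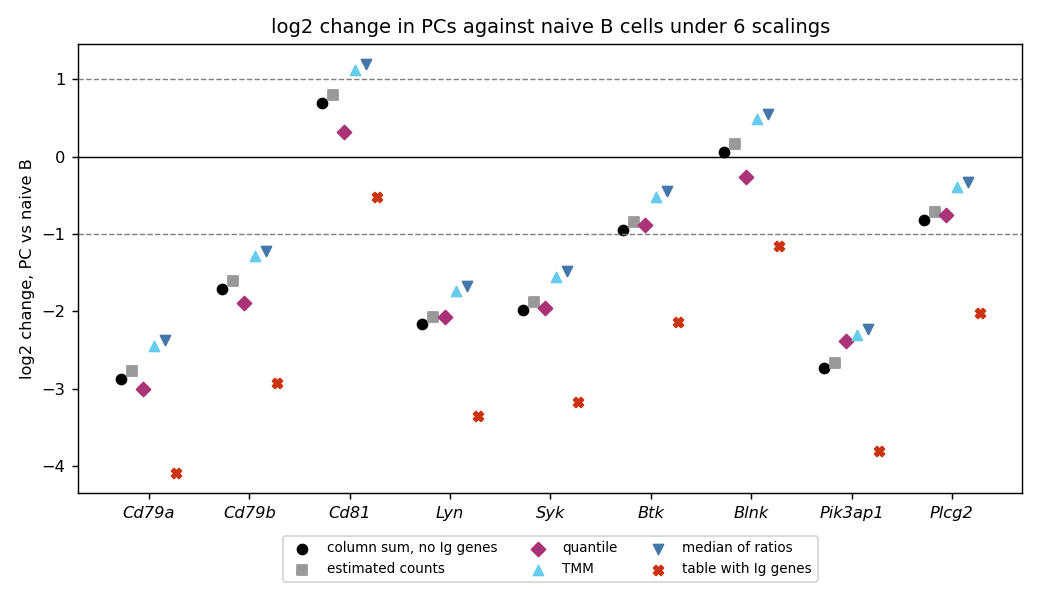
log2 change of the 9 genes in PCs against naive B cells under 6 ways of scaling the libraries, with dashed lines at a 2-fold change. Cd79a, Cd79b, Lyn, Syk and Pik3ap1 lie below the lower line under all 6, whereas Cd81 ranges from -0.52 to 1.19 and Blnk from -1.15 to 0.56.

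Without Ig genes, the summed TPM of the 9 genes came to 7899 ± 173 in the naive libraries (SD, n = 3 per group), to 6069 ± 157 in the NP+ B cell libraries and to 2506 ± 148 in the PC libraries. The sum is relative to other non-Ig transcripts. For Cd79a, keeping Ig genes moved the naive mean from 3546 to 3320 TPM and the PC mean from 486 to 142. The makeup of the sum differed between groups. Cd79a took 44.9% of the sum in naive B cells, 37.4% in NP+ B cells and 19.5% in PCs, whereas the share of Cd79b was 36.7%, 35.0% and 35.6%. Cd81 went from 3.77% over 8.62% to 19.4%, and Blnk from 4.38% over 7.22% to 14.5%. By level the order in naive B cells was Cd79a, Cd79b, Blnk, Cd81, Syk, Lyn, Btk, Plcg2 and Pik3ap1. In PCs it was Cd79b, Cd81, Cd79a, Blnk, Btk, Plcg2, Syk, Lyn and Pik3ap1, in which Cd81 and Cd79a, Btk and Plcg2, Plcg2 and Syk, and Syk and Lyn overlapped in their library values, whereas in naive B cells no neighbours in the order overlapped. Without PC replicate 3, Btk and Plcg2 were the remaining overlap among these pairs. Mean levels of Lyn and Syk were above those of Btk and Plcg2 in naive B cells and below them in PCs.

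The wider pathway was described with 98 further genes in 8 lists, of which 94 were tested. Between NP+ and naive B cells 11 were called higher and 8 lower, or 20.2% of those tested, near the 18.5% of all tested genes. In PCs 2 were called higher and 60 lower against naive B cells (62 of 94), and 1 higher and 59 lower against NP+ B cells (60 of 94), where 26.3% and 22.3% of all tested genes were called lower. The median log2 changes of the 94 genes were -0.26, -1.49 and -1.37 in these comparisons. In PCs against naive B cells 0 were called higher and 82 lower with Ig genes kept, where 93 were tested and 64.5% of all genes were called lower. With median-of-ratios scaling 2 were called higher and 47 lower, beside 14.1% of all genes called lower.

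**Figure D5:**
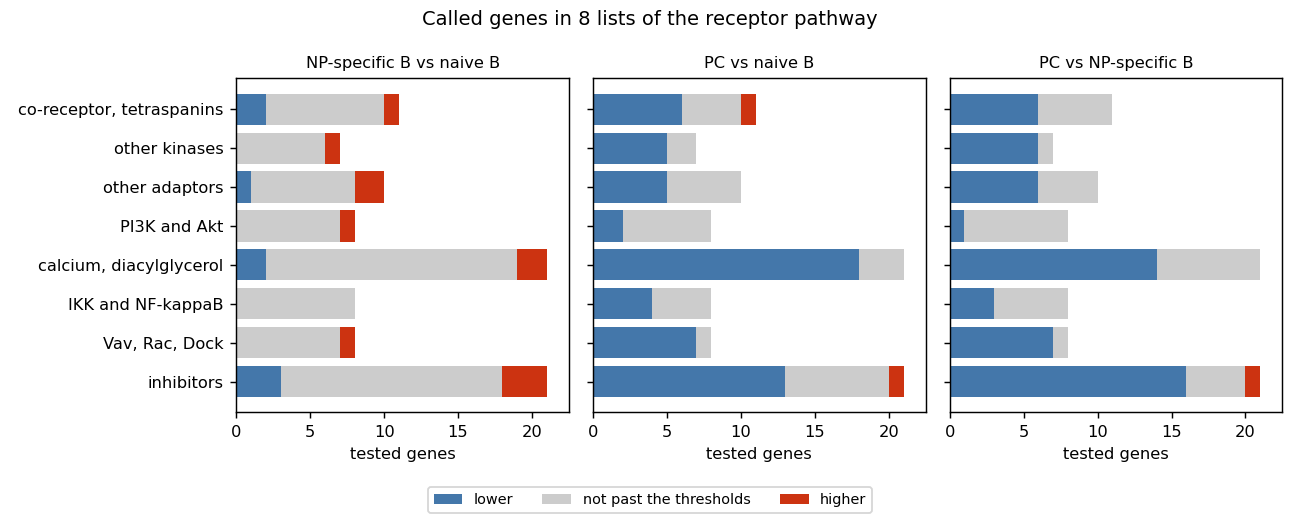
Number of tested genes called lower, not called and called higher in 8 lists of the receptor pathway, with 1 panel per comparison. In PCs against naive B cells 18 of 21 genes of the calcium and diacylglycerol list and 7 of 8 of the Vav, Rac and Dock list were called lower. In the PI3K and Akt list it was 2 of 8, and over all tested genes 26.3%.

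Of 11 co-receptor and tetraspanin genes, PCs had 6 called lower and 1 called higher against naive B cells, where 26.3% of all tested genes were called lower. Cr2, the complement receptor CD21, averaged 326 TPM in naive B cells, 154 in NP+ B cells and 10.9 in PCs (log2 change -1.09 and -4.87 against naive B cells), and the former was -0.98 and under 2-fold with median-of-ratios scaling. Cd9, a tetraspanin like Cd81, was called higher in NP+ B cells (1.36) and in PCs (2.17), though in PCs it was 0.97 and under 2-fold with Ig genes kept. Tspan32 fell from 319 TPM in naive B cells to 14.7 in PCs (-4.41). Ptprc, which encodes the B220 antigen of the sort, had log2 changes of 0.061 in NP+ B cells and -1.47 in PCs against naive B cells, where B220 was not required. Cd151, a tetraspanin with at most 2.82 TPM in any group mean, was called lower in NP+ B cells (-1.08), a call lost without naive replicate 1 or 3 or NP+ replicate 1 (-0.89 to -1.02), with median-of-ratios (-0.98) and quantile scaling (-0.79) and with log2(TPM + 1) (-0.88).

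Among 7 further kinases 5 were called lower in PCs against naive B cells and 6 against NP+ B cells, where 26.3% and 22.3% of all tested genes were. The Src family kinase Lck had a mean TPM of 53.8 in naive B cells and of 0.564 in PCs, a log2 change of -5.74. Fyn was called higher in NP+ B cells (1.34, adjusted p = 0.031), a call lost on leaving out any naive library or NP+ replicate 1 or 3 (adjusted p of 0.068 to 0.097), with no filter (0.069) and with log2(TPM + 0.1) (0.058). Of 10 further adaptors 5 were called lower in PCs against naive B cells (26.3% of all tested genes), among them Bank1 (-4.40), a scaffold of B cell signalling, and Grb2 (-2.06). Sh3bp2 was lower (-1.48) and Sh2b2 higher (1.96) in NP+ B cells, the latter with an adjusted p of 0.053 without naive replicate 2 and of 0.061 with the deposited log2 values, where its change was 4.23.

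Grb2, which links receptors to Ras, was called higher in NP+ B cells (2.67, adjusted p = 0.00023), with 351, 139 and 307 TPM in these libraries. Prkcb, a protein kinase C activated by diacylglycerol, had 388, 55.5 and 205 TPM there against 36.9 in naive B cells (2.13, adjusted p = 0.017). Rac1, a small GTPase, had 290, 38.4 and 171 TPM there against 26.0 in naive B cells (2.23, adjusted p = 0.020). The call of Rac1 was lost without any naive library or NP+ replicate 3 (adjusted p of 0.0503 to 0.059), and that of Prkcb without naive replicate 3 (adjusted p = 0.052). With no filter both were lost (adjusted p = 0.056 and 0.051). In all 3 genes NP+ replicate 2 was the lowest. That library had the highest summed myeloid markers of its group, although the sort removed F4-80 positive cells. It also had the most genes above 0 TPM of its group, 22176 of 29995, against 19288 in replicate 1 and 18372 in replicate 3. The naive libraries had 24196 to 25169. The part of other cells and of the number of genes detected in these values was not tested.

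In the calcium and diacylglycerol list 18 of 21 genes were lower in PCs against naive B cells and 0 higher, where 26.3% of all tested genes were called lower. Rasgrp1, a diacylglycerol-dependent Ras activator, fell from 68.4 to 1.95 TPM (-4.88), and Itpr1, an inositol trisphosphate receptor, from 15.8 to 0.734 TPM (-3.91). In NP+ B cells Stim2, a calcium sensor, was called higher (2.12), while Dgka, a diacylglycerol kinase, and Itpkb, an inositol trisphosphate kinase, were called lower (-1.41 and -1.06), and Itpkb was under 2-fold without naive or NP+ replicate 2 (-0.97 for each) and with median-of-ratios (-0.95), TMM (-0.97) and quantile scaling (-0.998). Of 8 genes that lead to NF-kappaB, 4 were called lower in PCs against naive B cells (26.3% of all tested genes), among them Ikbkb (-2.29), a subunit of the IkappaB kinase, and Malt1 was lower against NP+ B cells (-1.82). Of 8 genes of the Vav, Rac and Dock list 7 were called lower (the same 26.3%), among them Vav2 (-2.76) and Dock2 (-2.69), and Rac2 was lower against NP+ B cells (-2.89).

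In the PI3K and Akt list 2 of 8 tested genes were called lower in PCs against naive B cells, near the 26.3% of all tested genes. These were Pik3cd (-1.42), the catalytic subunit p110 delta, and Pik3r2 (-1.14), a regulatory subunit, which with median-of-ratios scaling were -0.93 and -0.65 and with TMM scaling -0.998 and -0.71, no longer called. Pik3r2 was at -0.67 with quantile normalization and at -0.995 without PC replicate 1. Akt1 was called higher in NP+ B cells against naive B cells (1.28) and lower in PCs against NP+ B cells (-1.69). The list's median log2 change in PCs against naive B cells was -0.43, close to the -0.47 of all tested genes.

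Of 21 inhibitors of the pathway 13 were called lower in PCs against naive B cells and 16 against NP+ B cells, where 26.3% and 22.3% of all tested genes were. Cd22 and Cd72, inhibitory receptors of B cells, had mean TPM of 732 and 608 in naive B cells and of 3.23 and 3.56 in PCs (log2 change -7.69 and -7.27). Ptpn22, a phosphatase that dampens Src family kinases, was higher in both NP-binding groups (1.68 in NP+ B cells and 1.04 in PCs), but in PCs it was -0.16 with Ig genes kept, and under 2-fold without naive replicate 1 (0.98) or PC replicate 2 (0.90). In NP+ B cells Lair1 was called higher (1.28, and 0.99 without NP+ replicate 2), and Pag1, a membrane adaptor, and Dok3, an inhibitory adaptor, were called lower (-1.32 and -1.27). Inppl1, a lipid phosphatase, was called higher in PCs against NP+ B cells (1.08) at group means of 3.04 and 1.25 TPM, a call lost with Ig genes kept (0.26), with log2(TPM + 1) (0.88) and without NP+ replicate 3 (0.76) or PC replicate 2 (0.91).

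Genes outside the list were ranked by how closely their levels followed the members over the 9 libraries, by Pearson's r of log2(TPM + 0.5). The libraries fall into 3 groups, so r mainly reflects 3 group levels and is given as a description. Scaf11 (0.998), Plekhf2 (0.997) and Tm6sf1 (0.996) followed the mean of the members most closely. For single members the closest genes were H2-Aa for Cd79a (0.999), Tbc1d5 for Cd79b (0.998), Mapre2 for Cd81 (0.994), Ccr6 for Lyn (0.999), Casp9 for Syk (0.996), Rhof for Btk (0.998), Ccar1 for Blnk (0.988), Smpdl3a for Pik3ap1 (0.997) and Bcl3 for Plcg2 (0.998). H2-Aa, a class II antigen presentation gene, had mean TPM of 6836, 3296 and 266 in naive B cells, NP+ B cells and PCs. Mapre2 had 54.1, 112 and 98.0, higher in both NP-binding groups as Cd81 was, and Ccar1 had 29.1, 51.0 and 34.3.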

How the data were processed

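RNA-seq was analysed in 9 libraries, 3 per group, from polyadenylated RNA (SMART-Seq v4 cDNA, Nextera XT libraries), with groups taken from the labels. The authors pseudoaligned reads with kallisto and summed transcripts per gene symbol, and the deposited TPM values are theirs. The authors' log2 values, also deposited, hold counts per library total, though the study's methods name voom (limma) on TPM. They were used here to recover depth and as an alternative. The labels name build mm10. Coordinates are GENCODE M21 on GRCm38. Both tables exist with and without Ig genes, and the table without them was the main one.

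TPM values were passed to voom and limma (3.58.1, R 4.3.3) with an offset of 0.5, after the study's methods, in 1 unblocked model of all 9 libraries with a mean per group. Genes with at least 1 TPM in at least 3 libraries were tested, with Benjamini-Hochberg adjustment over all of them. A log2 change is on the log2(TPM + 0.5) scale, which understates changes of low genes. Ratios were compared by two-sided exact permutation tests. Alternatives were the deposited log2 values, the table with Ig genes, estimated counts, median-of-ratios, TMM and quantile scaling, other filters and offsets, the groups compared alone, a replicate block and each library left out. Overlaps without PC replicate 3, ratios under quantile normalization and pathway counts under the alternatives were added after the data were seen.

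The members and lists were chosen with earlier results of these data known. The rule for named genes took all 9 members, Ptprc, from each pathway list and comparison up to 2 called genes with the largest rise and 2 with the largest fall, and the genes of most similar pattern. Some genes that the rule takes are not reported here. The study used 3 mice, but the labels do not tie a library to a mouse. Which sequencer read which library was not given in the sources used here, so a batch could not be examined. The depth speaks to counting error alone, as PCR copies could not be told from separate molecules.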

Additional observations from a re-analysis of the deposited data

How the results depend on the processing

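The 5 members called lower in PCs against naive B cells (Cd79a, Cd79b, Lyn, Syk and Pik3ap1) kept that call under every alternative run, and 0 members were called between NP+ and naive B cells under each. With Ig genes kept, 8 members were called in PCs against naive B cells and 9 against NP+ B cells, and the calls over all genes were 8494 and 7775. With a mean TPM of at least 10, 7278 genes were tested in place of 12892. Of these, 1179 (16.2%) were called between the B cell groups, 2965 (40.7%) for PCs against naive B cells and 2640 (36.3%) for PCs against NP+ B cells. The main fit called 2388 (18.5%), 4870 (37.8%) and 4150 (32.2%). With median-of-ratios and TMM scaling 6 members were called in PCs against naive B cells (5 lower, Cd81 higher), beside 32.3% and 32.4% of all genes, and 4 against NP+ B cells, beside 29.6% and 29.5%, where Cd79b was at -0.87 and -0.92.

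Directions turned in the following cases. Lyn between the B cell groups was 0.052 (median-of-ratios) and 0.032 (TMM). Cd81 in PCs against naive B cells was -0.52 with Ig genes, and against NP+ B cells 0.28 (median-of-ratios), 0.24 (TMM) and, with each library left out, -0.17 to 0.0019, the latter without PC replicate 3. Blnk in PCs against naive B cells was -1.15 with Ig genes and -0.26 with quantile normalization, and against NP+ B cells 0.12 (median-of-ratios) and 0.070 (TMM). The changes of members that turned had not passed both thresholds. Outside the members, Ptpn22 in PCs against naive B cells had passed both (1.04) and was -0.16 with Ig genes kept. For the members alone, with each library left out in turn, 242 results kept direction and call, and 1 turned. These counts include fits without a library of the group not compared, which could hardly move the change. Outside the members, calls of several named pathway genes were lost on leaving out a library, among them Fyn, Rac1 and Cd151 between the B cell groups.

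Replicate numbers were not shown to pair the libraries, since deviations of same-numbered libraries correlated between -0.0749 and 0.0675 and a library matched its own number best in 7 of 18 cases. With the replicate block 0, 5 and 5 members were called, and 2453, 4898 and 4238 genes (19%, 38% and 32.9% of those tested). Pik3ap1 in PCs rests on the fewest reads, with a counting error of at most 5.34%.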
